A study of Mus musculus with 55 samples.

Results

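Undamaged livers were compared 3 months (3M) after *Rnf43* and *Znrf3* had been deleted in hepatocytes. The comparison holds 8 of the 55 sample records of the series, 3 libraries of mice with the deletion (R&Z del) and 5 of control mice (R&Z flox), chosen by the condition, genotype and time the study lists for each library. All 8 mice were of the C57BL/6 strain and carry floxed alleles of both genes, and in the R&Z del mice Cre removed the exons that encode the RING domain of each protein. Cre was expressed from hepatocyte promoters only, so the other cells of an R&Z del liver keep both genes. Adult mice were induced in 2 ways, which are also the 2 batches of libraries. In the first batch, *AlbCre-ERT2* R&Z flox mice received tamoxifen (i706_i517 and i707_i517, both R&Z del). The study gave its controls vehicle, but i704_i517 and i705_i517, both R&Z flox, are listed with tamoxifen as their agent too. If they had vehicle, tamoxifen and genotype are the same split in this batch. In the second batch, R&Z flox mice received an AAV8 virus with Cre under the TBG promoter (S18, R&Z del) or a null virus (S15, S16 and S17, R&Z flox). RNA of whole liver was read, so a fall in the number of cells of a type and a fall in RNA per cell cannot be told apart.

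RNF43 and ZNRF3 are E3 ubiquitin ligases of the cell membrane that mark Frizzled, the WNT receptor, for removal, and R-spondins lift this brake by clearing the ligases through LGR receptors. In the liver, WNT ligands from the central vein keep β-catenin active in the hepatocytes next to it, which express a pericentral programme of glutamine synthesis and drug oxidation. Hepatocytes near the portal vein express a periportal programme instead, with breakdown of amino acids, urea synthesis and secretion of plasma proteins.

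Sex, batch and a conflict of records bear on every value below. All 5 R&Z flox mice and S18 were listed as male, and i706_i517 and i707_i517 as female, so that in the first batch genotype and sex are the same split, and S18 alone is both male and R&Z del. The female transcript *Xist* had a CPM (counts scaled to a common library total with edgeR's TMM factors) of 19.7 in i706_i517 and 56.9 in i707_i517 and of at most 0.256 in the 6 libraries listed as male. The Y-linked *Ddx3y* lay between 14.97 and 69.1 in those 6 and at 0.0344 and 0.0253 in the other two. For i707_i517 the GEO record gives a wild-type genotype and its title another condition, whereas the study's sample list gives the deletion. It was kept as R&Z del, and results are given with it, without it and with it counted as R&Z flox. The title of i706_i517 names 7 months and its characteristics 3 months, which were followed.

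Total counts ranged from 11721687 to 38692089, and the 3 R&Z flox libraries of the second batch were the shallowest. Of the 12878 genes tested, 151 to 244 had no count in the 4 libraries of the first batch, against 1835 to 2503 in the 4 of the second. Pearson correlations of log2 CPM over these genes were 0.946 to 0.981 within the first batch, 0.778 to 0.828 within the second and 0.725 to 0.854 between them. S17 stood farthest from the rest, at 0.725 to 0.784 with every other library. The hepatocyte transcripts *Alb*, *Apoa1* and *Ttr* had CPM of 22080 to 78870, 18660 to 30530 and 15340 to 26930.

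For the deleted genes a count over the whole gene includes exons that the deletion leaves in place, so their level does not check the deletion. *Rnf43* (chromosome 11, 87663087 to 87735539, GRCm38.p6) had CPM of 11.8 and 8.71 in the first-batch and 17.9, 6.46 and 27.4 in the second-batch R&Z flox libraries, and 32.7, 35.8 and 27.1 in i706_i517, i707_i517 and S18. *Znrf3* (chromosome 11, 5276329 to 5444847) had 9.57, 6.77, 21.2, 14.6 and 32.4 in the R&Z flox libraries in the same order, and 27.5, 31.97 and 68.7 in the R&Z del libraries. Both were higher in R&Z del mice on average, and for both the groups overlapped because of S17. The adjusted p was 0.485 for *Rnf43* and 0.116 for *Znrf3*, neither past the threshold.

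Genes were called at a Benjamini-Hochberg adjusted p below 0.1 in edgeR's quasi-likelihood test with a log2 fold change, taken as R&Z del relative to R&Z flox, beyond 1 in either direction. The model held all 26 undamaged libraries of 1, 3 and 7 months, with terms for sex and batch, so the sex effect was learned mainly at the other time points. It called 28 of 12878 genes higher (0.217%) and 17 lower (0.132%). At an unadjusted p below 0.05, with no fold threshold, 1023 genes differed (7.94%), 586 higher (4.55%) and 437 lower (3.39%). The median log2 fold change of all genes tested was -0.07. Without i707_i517, 29 of the 45 were called, 20 higher and 9 lower, and no other gene was. With edgeR's likelihood ratio test, the kind the study names, 100 genes were called, the 45 among them. With i707_i517 counted as R&Z flox, 0 genes were called and 482 had an unadjusted p below 0.05, and all 45 kept the sign of their fold change. Leaving out S18 gave 16 higher and 16 lower calls, of which 12 and 9 were among the 45, and leaving out i705_i517 gave 43 higher calls in place of 28.

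In CPM, without any model, 22 of the 28 genes called higher lay above every R&Z flox library in all 3 R&Z del libraries, and 16 of the 17 called lower lay below. Over all genes tested, 6.88% lay apart in this way, 4.29% above and 2.59% below. Each R&Z del library can also be set against the R&Z flox libraries of its own batch. Of the 45 genes, 41 lay apart in the called direction within the first batch, 44 within the second and 41 within both, where 44.2%, 43.2% and 14.2% of all genes tested lay apart in either direction. The 45 were called from these same values, so the counts are a description. The plot of called genes by library shows these ratios. Of the 29 genes called without i707_i517, that library, which had no part in those calls, lay beyond all 5 R&Z flox libraries in the called direction in 27. Over all genes tested it lay above all 5 in 19.1% and below in 10.1%. The same R&Z flox libraries entered those calls, as did i706_i517, which shares batch and sex with i707_i517. These counts are therefore a description as well.

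**Figure D1:**
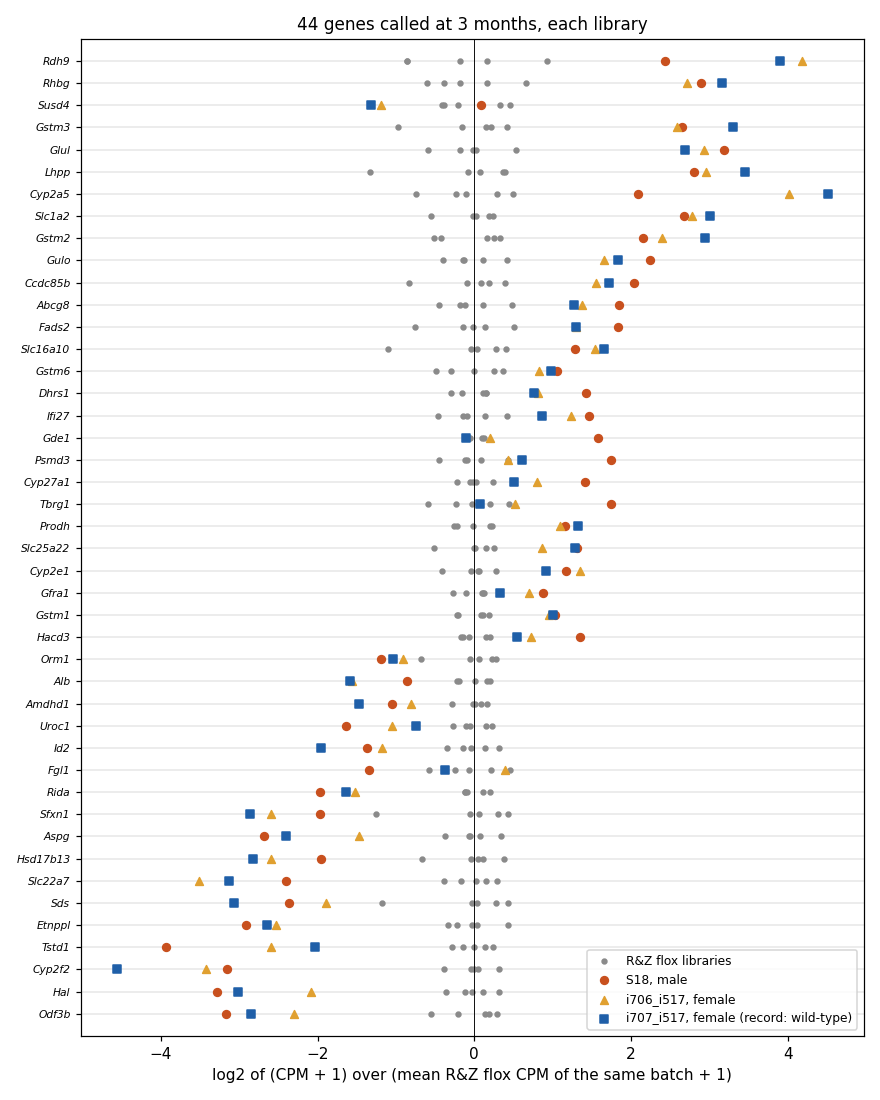
Log2 ratio of CPM + 1 in each library to the mean of the R&Z flox libraries of the same batch plus 1, for 44 of the 45 called genes in order of their fitted fold change. Grey points are the 5 R&Z flox libraries and coloured points the 3 R&Z del libraries, which lie to one side of the grey points in most rows. *Susd4*, *Fgl1*, *Gde1* and *Tbrg1* are rows where a R&Z del library lies among or beyond the grey points on the other side.

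Most genes of the pericentral list were higher. Of 28 pericentral genes tested, 10 were called higher and 0 lower, and 24 had a positive fold change. Over all genes tested, 0.217% were called higher and 46.4% had a positive fold change. The median log2 fold change of the list was 1.01 (1.14 without i707_i517 and 0.96 with it as R&Z flox). The list was drawn up with earlier results of these data known. Glutamine synthetase, *Glul*, which binds ammonia in the last row of hepatocytes, had CPM of 118 and 115 in the first-batch and 113, 84.7 and 186 in the second-batch R&Z flox livers. In the R&Z del livers it was at 893, 755 and 1175 in i706_i517, i707_i517 and S18. The lowest R&Z del value was above the highest R&Z flox value (log2 fold change 2.77, SE 0.37, adjusted p = 0.000245).

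Transporters that serve glutamate and ammonium uptake moved with *Glul*. *Slc1a2*, the glutamate transporter GLT-1, had CPM of 71.8, 69.9, 44.8, 78.0 and 75.1 in the R&Z flox livers, in the same order, and 490.3, 579 and 425 in the R&Z del livers. The groups were far apart in both batches (log2 fold change 2.49, SE 0.31, adjusted p = 7.87e-05). *Rhbg*, an ammonium transporter of the Rh family, was at 10.8 and 13.9 in the first-batch and 0.256, 1.59 and 0.0780 in the second-batch R&Z flox livers, against 86.9, 118 and 11.2 in the R&Z del livers. It was higher in R&Z del livers within each batch, but S18 lay among the first-batch R&Z flox values, so the groups overlapped when pooled (log2 fold change 3.40, SE 0.60, adjusted p = 0.00568). *Oat*, ornithine aminotransferase, which yields glutamate in pericentral cells, lay above the R&Z flox range in each R&Z del library and had a log2 fold change of 1.85 with an adjusted p of 0.128.

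Vitamin C synthesis and phosphohistidine metabolism were represented by single pericentral genes. *Gulo*, L-gulonolactone oxidase, which makes ascorbate in mice, had the smallest p of all genes. Its CPM were 475, 562, 337, 495 and 281 in the R&Z flox livers and 1641, 1853 and 1764 in the R&Z del livers, with no overlap (log2 fold change 2.10, SE 0.20, adjusted p = 2.76e-06). *Lhpp*, a phosphatase that acts on phosphohistidine, had 33.6, 37.3, 42.2, 41.2 and 12.1 in the R&Z flox livers and 281, 399 and 228 in the R&Z del livers. S17 was the low one among its controls, and the gene (log2 fold change 2.67, SE 0.42, adjusted p = 0.00145) was also called with any one of the 8 libraries left out.

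RNA of some cytochrome P450 enzymes of drug and sterol oxidation rose. *Cyp2a5*, a coumarin hydroxylase, had CPM of 44.5, 106, 75.7, 109 and 82.9 in the R&Z flox livers and 1233, 1739 and 384 in the R&Z del livers. Both females were far above the male S18, which was itself above every R&Z flox library (log2 fold change 2.497, SE 0.49, adjusted p = 0.0174). *Cyp2a4* is a near-identical neighbour of *Cyp2a5*, and reads may have been split between them. *Cyp2e1*, which oxidises ethanol, ranged from 8271 to 13360 in the R&Z flox and from 18390 to 24920 in the R&Z del livers (log2 fold change 1.18, SE 0.19, adjusted p = 0.00176). *Cyp27a1*, the sterol 27-hydroxylase of bile acid synthesis, ranged from 312 to 624 and from 875 to 1071 (log2 fold change 1.24, SE 0.23, adjusted p = 0.0123). Among 58 genes of P450 families 1 to 4 tested, 2 were called higher and 1 lower. At an unadjusted p below 0.05, 8 were higher and 7 lower, against 4.55% and 3.39% of all genes tested, so members lay on both sides. The median log2 fold change of the list was 0.13, and 0.58 without the sex term. *Cyp1a2*, which oxidises caffeine, had a log2 fold change of 0.94 (adjusted p = 0.0644), just under the fold threshold.

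**Figure D2:**
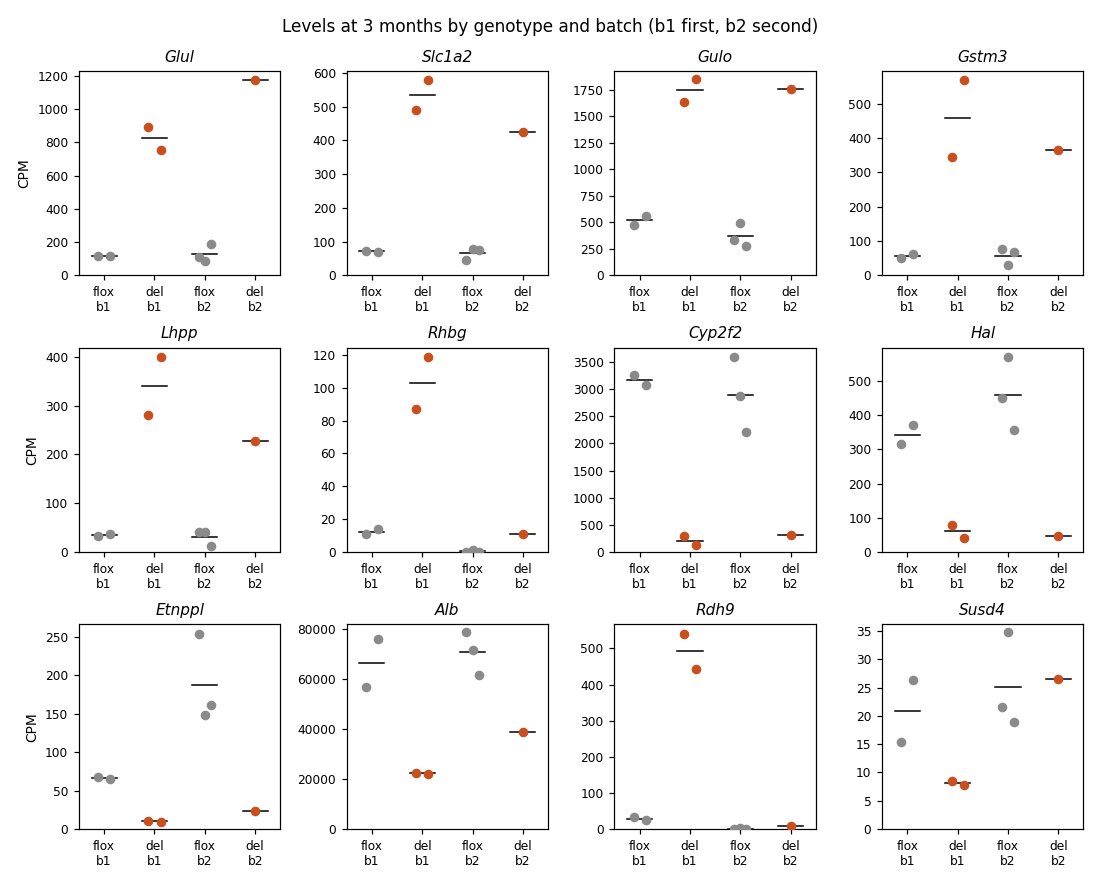
CPM of 12 genes in every library at 3M, by genotype (flox or del) and batch (b1 first, b2 second), with a line at the mean of each set. *Glul*, *Slc1a2*, *Gulo*, *Gstm3* and *Lhpp* lie higher and *Cyp2f2*, *Hal*, *Etnppl* and *Alb* lower in R&Z del livers of both batches, while *Rhbg* and *Rdh9* differ strongly in level between batches and *Susd4* is low in the first-batch R&Z del livers.

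4 glutathione S-transferases of the mu class, which conjugate electrophiles to glutathione, were called higher. *Gstm3* had CPM of 50.8, 63.0, 77.5, 28.8 and 66.9 in the R&Z flox livers and 346, 569.5 and 367 in the R&Z del livers. *Gstm2* had 49.1, 83.2, 87.5, 93.2 and 54.5, and 354, 516 and 350.5. For both, every R&Z del value was above every control value, and the log2 fold change was 2.96 for *Gstm3* (SE 0.34, adjusted p = 2.83e-05) and 2.28 for *Gstm2* (SE 0.32, adjusted p = 0.000357). *Gstm1* rose by 1.07 (SE 0.19, adjusted p = 0.00495) and *Gstm6* by 1.46 (SE 0.25, adjusted p = 0.00495). The genes lie side by side on chromosome 3, from 107938847 to 108017973 in GRCm38.p6, and are similar enough that reads may have been split between copies. Of the 21 glutathione S-transferases tested, 4 were called higher, 0 lower, and 17 had a positive fold change with a median of 0.29. *Gsta3*, *Gstm4* and *Gstt2* had log2 fold changes of 0.67, 1.01 and 0.67 (adjusted p = 0.225, 0.442 and 0.455), and none was called.

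The remaining genes called higher were mostly enzymes and carriers. Among those with log2 fold changes of 1.06 to 1.98 were the sterol half-transporter of bile *Abcg8* (1.90, adjusted p = 0.0644), the delta-6 desaturase *Fads2* (1.63, adjusted p = 0.0204), the aromatic amino acid transporter *Slc16a10* (1.49, adjusted p = 0.0205), the mitochondrial glutamate carrier *Slc25a22* (1.20, adjusted p = 0.0863), proline dehydrogenase *Prodh* (1.22, adjusted p = 0.086) and the acyl-CoA dehydratase *Hacd3* (1.06, adjusted p = 0.0411). The others in that range were *Ccdc85b*, the short-chain dehydrogenase *Dhrs1*, the interferon-inducible *Ifi27*, the glycerophosphodiesterase *Gde1*, the proteasome subunit *Psmd3*, *Tbrg1* and the GDNF receptor *Gfra1*. For *Fads2*, *Gde1* and *Tbrg1* the CPM of the groups overlapped. Without i707_i517, *Abcg8*, *Ccdc85b*, *Dhrs1*, *Gfra1*, *Prodh*, *Psmd3*, *Slc25a22* and *Susd4* were no longer called. Other libraries mattered too: with 1 of the 8 left out in turn, *Gfra1* was called in 0 fits. *Dhrs1*, *Prodh* and *Slc25a22* were each called in 1 such fit. Without the sex term 35 of the 45 genes were called, and *Dhrs1*, *Gde1*, *Gfra1*, *Gstm6*, *Psmd3* and *Tbrg1* were among those lost.

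*Rdh9* and *Susd4* had pooled levels that overlapped between the groups. *Rdh9*, of the retinol dehydrogenase family, had CPM of 32.4 and 25.2 in the first-batch and 0, 2.43 and 0 in the second-batch R&Z flox livers, against 539, 444 and 8.81 in the R&Z del livers. Its level was far lower in the second batch, and within each batch every R&Z del library was above every control (log2 fold change 3.48, SE 0.72, adjusted p = 0.0237). It was not called without S18 and was called with any one other library left out. *Susd4*, a complement inhibitor, had 15.3, 26.3, 21.5, 34.8 and 18.9 in the R&Z flox livers and 8.54, 7.72 and 26.6 in the R&Z del livers. The R&Z del females were below every control and S18 within their range, yet the fitted log2 fold change was 3.28 (SE 0.78, adjusted p = 0.086). It was -0.69 without the sex term, so its direction depended on that term.

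Most genes of the periportal list were lower. Of 26 periportal genes tested, 7 were called lower and 0 higher, and 22 had a negative fold change. A positive fold change was seen in 15.4% of the list and in 46.4% of all genes tested, of which 0.132% were called lower. The median log2 fold change of the list was -1.24 (-1.21 without i707_i517 and -0.97 with it as R&Z flox). This list too was drawn up with earlier results of these data known. *Cyp2f2*, a P450 that serves as a periportal marker, had CPM of 3257, 3076, 3585, 2874 and 2206 in the R&Z flox livers and 293, 133 and 324 in the R&Z del livers. It was far below the control range in all 3 (log2 fold change -3.18, SE 0.48, adjusted p = 0.000937).

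RNA of the first 3 enzymes of histidine breakdown was lower. *Hal*, histidine ammonia-lyase, had CPM of 316, 369.9, 449.9, 571 and 356 in the R&Z flox livers and 80.3, 41.6 and 46.2 in the R&Z del livers (log2 fold change -3.27, SE 0.49, adjusted p = 0.000937). *Uroc1*, urocanase, ranged from 162 to 511 and from 93.3 to 148 (-1.41, SE 0.23, adjusted p = 0.00178). *Amdhd1*, the third enzyme, ranged from 176 to 270.3 and from 96.3 to 153 (-1.26, SE 0.29, adjusted p = 0.0699). In each case the groups did not overlap. The grouping into this pathway was made after the values had been seen, and its next enzyme, *Ftcd*, had a log2 fold change of -0.68 (adjusted p = 0.329), so it was not called.

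Transcripts of serine, asparagine and ethanolamine breakdown showed the same direction. *Sds*, serine dehydratase, had CPM of 141, 146, 129.6, 117 and 42.1 in the R&Z flox livers and 37.8, 16.3 and 17.8 in the R&Z del livers (log2 fold change -2.77, SE 0.60, adjusted p = 0.0381). S17 lay close to i706_i517 here, although the groups did not overlap. *Sfxn1*, a mitochondrial serine carrier, had 97.7, 106, 184, 167 and 56.1, and 16.04, 13.2 and 34.0 (-2.30, SE 0.41, adjusted p = 0.00568). *Aspg*, an asparaginase, had 182, 165, 153, 123.2 and 202, and 61.9, 31.97 and 24.0 (-2.37, SE 0.36, adjusted p = 0.000937). *Etnppl*, which cleaves phosphoethanolamine, had 67.8 and 64.9 in the first-batch and 254, 149 and 161 in the second-batch R&Z flox livers, and 10.7, 9.72 and 24.1 in the R&Z del livers (-2.79, SE 0.50, adjusted p = 0.00738). For these 4 genes all 3 R&Z del libraries were below all controls. Among 33 genes of amino acid catabolism tested, 4 were called lower (*Hal*, *Sds*, *Uroc1*, *Amdhd1*) and 1 higher (*Prodh*), and the median was 0.26. The tyrosine enzymes *Hgd* and *Hpd* had log2 fold changes of 0.75 and 0.93 (adjusted p = 0.086 and 0.113), opposite in sign to the histidine and serine enzymes.

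No gene of ammonia entry or the urea cycle passed the test. *Gls2*, the periportal glutaminase, was at 178 to 301 in the R&Z flox and 71.4 to 116 in the R&Z del livers (log2 fold change -1.45, adjusted p = 0.113). *Otc* and *Arg1*, of the urea cycle, had -1.16 and -1.27 (adjusted p = 0.251 and 0.368). None of the 15 urea cycle and ammonia genes tested was called in either direction, and their median was -0.04, close to the -0.07 of all genes. For the effect in the first and the second batch the median was 0.10 and -0.57. At an unadjusted p below 0.05, 1 gene was higher and 3 were lower. *Pigr*, the receptor that carries immunoglobulin A into bile, and the protease *Ctsc* had -1.005 and -2.15 (adjusted p = 0.113 and 0.116).

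Further genes called lower had other roles. *Hsd17b13*, a lipid droplet protein, had CPM of 534 and 570.2 in the first-batch and 200, 241 and 116 in the second-batch R&Z flox livers, and 90.7, 77.1 and 47.2 in the R&Z del livers (log2 fold change -2.39, SE 0.49, adjusted p = 0.0207). *Slc22a7*, the organic anion transporter OAT2, had 182, 145, 264, 219 and 164, and 13.4, 17.8 and 40.1 (-2.48, SE 0.56, adjusted p = 0.0593). *Tstd1*, a thiosulfate sulfurtransferase, had 37.4, 54.2, 56.9, 46.5 and 51.3, and 6.78, 10.5 and 2.44 (-2.87, SE 0.55, adjusted p = 0.0144). *Odf3b* had 28.96, 21.8, 51.4, 28.3 and 46.4, and 4.34, 2.66 and 3.77 (-3.39, SE 0.73, adjusted p = 0.0383). None of these 4 overlapped between the groups. *Hsd17b13*, *Slc22a7* and *Odf3b* were not called without i707_i517 (adjusted p = 0.134, 0.198 and 0.22), nor were *Sds*, *Rida*, *Id2*, *Amdhd1* and *Orm1*.

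Secreted proteins, a deaminase and a regulator completed the list. *Alb*, albumin, ranged from 56870 to 78870 CPM in the R&Z flox livers and was at 22480, 22080 and 38920 in the R&Z del livers (log2 fold change -1.22, SE 0.22, adjusted p = 0.00843). *Orm1*, an acute phase protein, ranged from 709.5 to 1371 and from 498 to 676, and only S17 among the controls was below 1225 (-1.17, SE 0.23, adjusted p = 0.0204). *Rida*, an imine deaminase, ranged from 991 to 1793 and from 345 to 399.6 (-2.09, SE 0.43, adjusted p = 0.0207). *Id2*, an inhibitor of basic helix-loop-helix factors, ranged from 259 to 762 and from 72.7 to 236 (-1.59, SE 0.31, adjusted p = 0.0138). *Fgl1*, a secreted fibrinogen-like protein, was the one gene called lower whose groups overlapped. Its CPM were 522, 379.9, 642, 927 and 450.1 in the R&Z flox and 591, 347 and 264 in the R&Z del livers (-1.85, SE 0.34, adjusted p = 0.00816), and without the sex term its log2 fold change was -0.71.

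The promoters of a few called genes are printed to show the letters CTTTGA, the core of the motif bound by the TCF/LEF factors that WNT signalling acts on. The 250 bases before each listed start were taken from RefSeq (GRCm38.p6) and searched for CTTTGA on both strands, read as TCAAAG on the other. For *Slc1a2* the only listed start lies inside the gene, which spans 102658239 to 102790784 on chromosome 2. Its window is therefore not the sequence before the first base of the gene. The sequences run 5′ to 3′ on the gene's strand, and capitals mark the matches. Shown are the genes called higher with the largest fold changes among those with a match, and *Hal* and *Hsd17b13*, periportal genes called lower. The match of *Gstm3* starts 134 bases before its start, those of *Slc1a2* 206 and 77, that of *Hal* 199, and those of *Hsd17b13* 184 and 18.
*Gstm3*, chr3:107969175-107969424, minus strand: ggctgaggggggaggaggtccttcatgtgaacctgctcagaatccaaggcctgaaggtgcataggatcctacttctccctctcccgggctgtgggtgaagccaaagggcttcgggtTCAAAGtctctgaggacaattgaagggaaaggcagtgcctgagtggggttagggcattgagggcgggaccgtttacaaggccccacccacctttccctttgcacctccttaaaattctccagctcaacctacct
*Slc1a2*, chr2:102706188-102706437, plus strand: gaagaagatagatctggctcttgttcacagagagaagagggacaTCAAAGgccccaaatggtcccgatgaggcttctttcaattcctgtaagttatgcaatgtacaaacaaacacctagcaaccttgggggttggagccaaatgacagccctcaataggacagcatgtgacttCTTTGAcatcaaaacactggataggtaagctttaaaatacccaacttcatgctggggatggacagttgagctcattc
*Hal*, chr10:93488518-93488767, plus strand: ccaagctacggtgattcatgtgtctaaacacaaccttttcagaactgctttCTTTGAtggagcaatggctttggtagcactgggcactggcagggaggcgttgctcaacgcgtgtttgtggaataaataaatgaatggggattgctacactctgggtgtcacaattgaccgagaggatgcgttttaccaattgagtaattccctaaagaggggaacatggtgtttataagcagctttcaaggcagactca
*Hsd17b13*, chr5:103977389-103977638, minus strand: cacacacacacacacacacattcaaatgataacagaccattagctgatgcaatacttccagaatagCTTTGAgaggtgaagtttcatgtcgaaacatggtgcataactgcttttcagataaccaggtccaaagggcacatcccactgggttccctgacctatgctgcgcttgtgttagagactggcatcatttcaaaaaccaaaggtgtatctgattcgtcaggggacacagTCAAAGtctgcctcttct

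Of the 28 genes called higher, 22 had a promoter in the table and 5 of these held the letters (22.7%), namely *Gstm3*, *Slc1a2*, *Cyp2e1*, *Gde1* and *Slc25a22*. Of the 17 called lower, 12 had a promoter and 5 held them (41.7%), *Hal*, *Hsd17b13*, *Odf3b*, *Tstd1* and *Uroc1*. Over all genes tested with a promoter the share was 13.5%, and 11.3% of their single promoters held a match. The windows of *Glul*, *Cyp2a5* and *Cyp2f2* held none. No test was made of these small counts, and the letters were in windows of genes of both directions.

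Among the lipid lists, *Fads2*, *Hacd3*, *Abcg8* and *Cyp27a1* were called higher and *Hsd17b13* lower. Of 24 genes of cholesterol synthesis and LDL uptake tested, 0 were called, yet 23 had a positive fold change (46.4% of all genes did), 13 were higher at an unadjusted p below 0.05 and 0 lower. Their median was 0.78, against 0.87 and 0.38 for the effect in the first and in the second batch within the whole model and 0.44 with i707_i517 as R&Z flox. *Fdft1*, squalene synthase, was at 147 and 234 in the first-batch and 78.0, 159.6 and 21.4 in the second-batch R&Z flox livers, and at 412, 368 and 331 in the R&Z del livers, with no overlap (log2 fold change 1.55, adjusted p = 0.135). *Tm7sf2*, a sterol reductase, and *Mvk*, mevalonate kinase, had 1.20 and 1.37 (both adjusted p = 0.247).

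Medians of the other lipid lists were positive and smaller. In fatty acid synthesis, 11 of 15 genes had a positive fold change, 0 were called and the median was 0.59, but it was 0.30 without i707_i517 and -0.01 with it as R&Z flox. The citrate carrier *Slc25a1* and the elongase *Elovl6* had log2 fold changes of 0.86 and 1.09 (adjusted p = 0.251 and 0.312). Of 24 desaturases, elongases and acyl-remodelling genes, 2 were called higher and 0 lower (median 0.25), and the delta-5 desaturase *Fads1* had 1.08 (adjusted p = 0.23). Of 28 genes of triglyceride synthesis and lipid droplets, 1 was called lower, *Hsd17b13*, and 0 higher (median 0.34), with *Gpat4*, *Lpin1* and *Dgat2*, which build glycerolipids, at 1.22, 1.36 and 0.76 (adjusted p = 0.113, 0.443 and 0.422). Among 29 genes of fatty acid oxidation, 0 were called and the median was 0.40, with 0.75 for the effect in the second batch and -0.19 in the first. *Bdh1* and *Acadvl*, of ketone body and fatty acid oxidation, had 0.78 and 0.97 (adjusted p = 0.259 and 0.491).

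**Figure D3:**
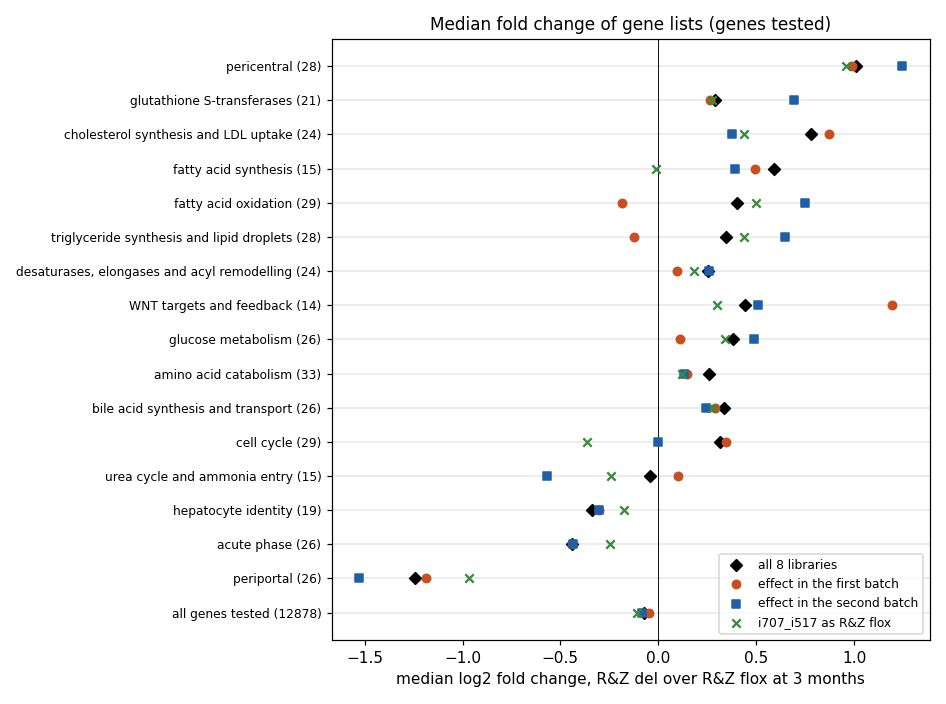
Median log2 fold change, R&Z del relative to R&Z flox, at 3M for 16 gene lists and all genes tested, with the number of genes tested in parentheses. Black diamonds are the reported fit, circles and squares the effect in the first and second batch within the whole model, and crosses the fit with i707_i517 as R&Z flox. The pericentral and periportal medians keep their sign in all 4, whereas those of fatty acid oxidation, triglyceride synthesis and the urea cycle change sign between batches.

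Of the plasma and identity genes of the hepatocyte, *Orm1* and *Alb* were called lower. Of 26 acute phase genes tested, 23 had a negative fold change, 1 was called lower (*Orm1*) and the median was -0.44. The iron hormone *Hamp* ranged from 1668 to 5516 CPM in R&Z flox and from 964 to 2224 in R&Z del livers (log2 fold change -1.68, adjusted p = 0.113), and its groups overlapped through i706_i517. Caeruloplasmin *Cp* and serum amyloid *Saa2* had -0.71 and -2.79 (adjusted p = 0.221 and 0.538). Among 19 hepatocyte identity genes, 14 had a negative fold change, *Alb* was the 1 called lower and the median was -0.34, with the transcription factor *Prox1* at -0.97 (adjusted p = 0.442). *Apoc3*, of lipoprotein particles, ranged from 9624 to 13660 and from 5799 to 6684, without overlap (-0.96, adjusted p = 0.388).

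WNT feedback and receptor genes were not called at this time point. Of 14 targets and feedback genes tested, 0 were called, 3 were higher and 1 lower at an unadjusted p below 0.05 and the median was 0.44. In all 3 R&Z del libraries, 4 of the 14 lay above and 1 below every R&Z flox library. Over all genes tested, 4.29% lay above and 2.59% below. The 14 genes summed to 89.58 to 204.3 CPM in R&Z flox and 214.9 to 263.7 in R&Z del livers, without overlap. Of 13 WNT receptor and R-spondin genes, a list without *Rnf43* and *Znrf3*, 0 were called and the median was 0.03. In it 1 gene was higher at that p, *Lgr5*, which is also among the 3 of the target list. *Lgr5*, an R-spondin receptor, had CPM of 3.16, 3.98, 14.3, 6.18 and 5.30 in the R&Z flox livers and 20.3, 17.7 and 42.9 in the R&Z del livers. *Notum*, a secreted enzyme that inactivates WNT ligands, had 27.2, 38.2, 28.4, 13.6 and 6.16, and 94.9, 103 and 41.5. Both were above all controls in all 3 R&Z del livers, and the log2 fold change was 1.78 for *Lgr5* (SE 0.71, adjusted p = 0.5) and 1.42 for *Notum* (SE 0.39, adjusted p = 0.186). No gene of the cell cycle (29 tested), the p53 response (18), the unfolded protein and integrated stress response (18) or the interferon-stimulated list (23) was called, and 1, 1, 0 and 1 were higher and 0, 1, 0 and 0 lower at an unadjusted p below 0.05. Their medians were 0.31, 0.35, -0.16 and 0.34 with all 8 libraries and 0.059, 0.24, 0.11 and 0.094 without i707_i517, and that of the cell cycle was -0.36 with it as R&Z flox. The cell cycle genes summed to 67.86 to 96.71 CPM in R&Z flox and 102.2 to 214.3 in R&Z del livers, without overlap. Gene by gene, 2 of the 29 lay above every R&Z flox library in all 3 R&Z del libraries, as 4.29% of all genes tested did.

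Genes that differ between male and female livers set the first batch apart. The summed CPM of 19 male-biased genes was 23450 to 63700 in the 5 male R&Z flox livers and 4798 and 2962 in the R&Z del females. In S18, the male R&Z del liver, it was 20070, below all 5 male controls. Female-biased genes, 27 in number, summed to 190 to 543.9 in the controls, to 4075 and 4152 in the R&Z del females and to 322.7 in S18, within the male range. *Mup3*, a male-biased major urinary protein, was at 12190 to 28500 in the controls, 2082 and 1556 in the females and 8303 in S18. Its log2 fold change was -1.24 (adjusted p = 0.186), and 0 genes of either list were called.

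**Figure D4:**
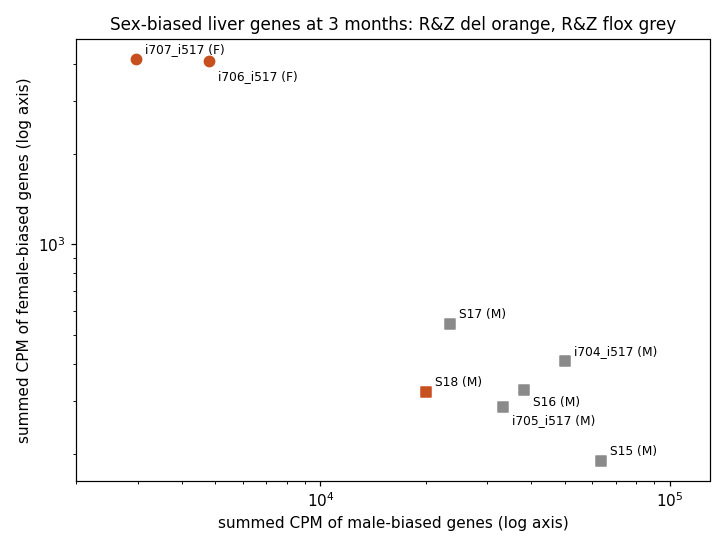
Summed CPM of 19 male-biased (x axis) and 27 female-biased (y axis) liver genes in the 8 libraries at 3M, both on log axes, with R&Z del in orange, R&Z flox in grey, circles for females and squares for males. The R&Z del females lie apart at upper left, and S18 has the lowest male-biased sum of the 6 males at 20070.

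With sex and genotype split alike in the first batch, the fitted fold changes of sex-biased genes depended on the sex term. *Cyp4a12a*, a male-specific P450, was at 216 to 624 CPM in the controls, at 8.88 and 1.95 in the females and at 491 in S18, and its fitted log2 fold change was 3.30 with the term and -2.11 without it. *Cyp2d9*, another male-biased P450, had 1.46 with it and -1.21 without. The female-biased *A1bg*, *Cyp2c69* and *Cyp3a44* had -6.56, -5.13 and -3.98 with the term and 3.87, 2.93 and 6.09 without it. None of these 5 was called in the reported fit or in the same fit without the term. With the term kept and S18 left out, *Cyp4a12a* and *A1bg* were called, at 5.05 and -7.72. That *Cyp4a12a* value is opposite in sign to its CPM difference in the first batch. In *Cyp2a12*, a P450 listed with families 1 to 4, the R&Z del values of 422, 412 and 428 were all below the R&Z flox range of 488 to 959 (log2 fold change -1.04, adjusted p = 0.135).

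Male mice alone, with S18 as the 1 R&Z del liver at 3M, gave 12 calls, and 10 of these were among the 45. They included *Glul*, *Lhpp*, *Gstm3*, *Slc1a2*, *Gstm2* and *Gulo*, higher, and *Hal*, *Aspg* and *Tstd1*, lower. With 1 such liver the spread was taken from the other groups. The first batch alone gave 2 calls, *Rdh9* and *A1bg*, and the second alone 30, of which 15 were among the 45. When the effect was fitted for each batch within the whole model, all 45 genes had the same sign in both batches. The 45 were called from these same libraries, so the shared sign is a description and not a test. It includes *Susd4*, with 4.49 in the first batch, where its R&Z del CPM were below the controls, and 0.083 in the second. The difference between the batches passed an adjusted p of 0.1 for 1 of 12878 genes (0.00777%), *Mau2*, which was not among the 45. Using the 8 libraries alone with a batch term gave 39 calls, of which 19 were among the 45, and adding the sex term to that model left 0 calls with 1573 genes at an unadjusted p below 0.05.

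**Figure D5:**
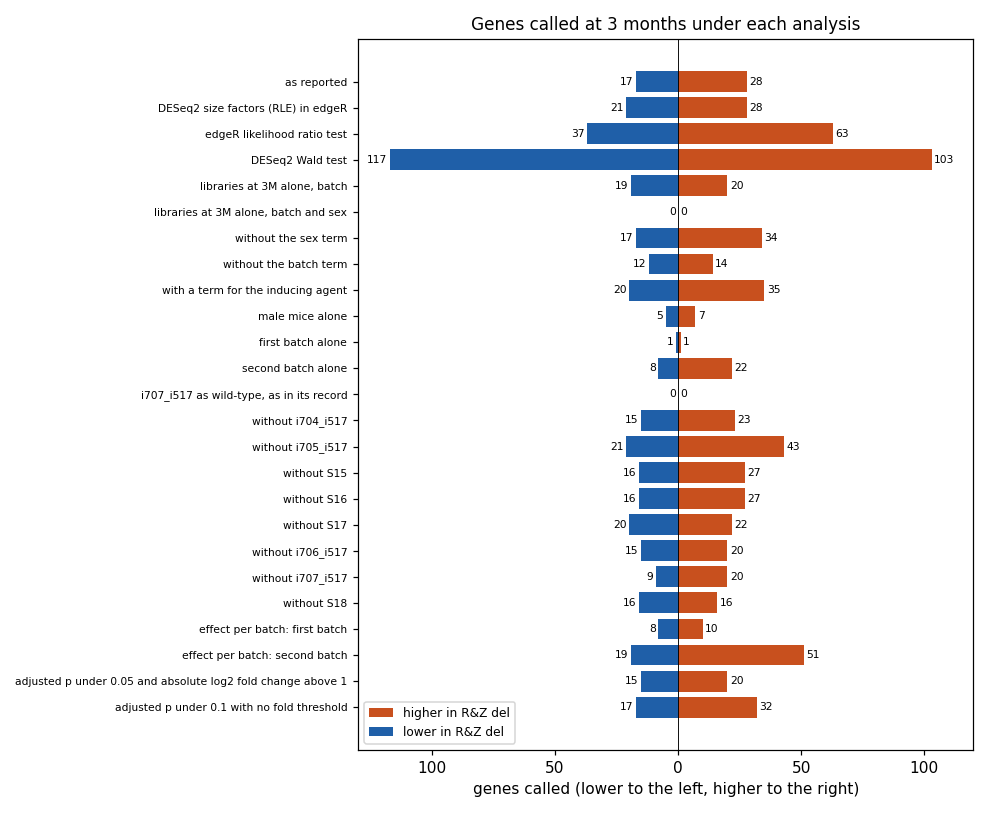
Number of genes called higher (orange, to the right) and lower (blue, to the left) in R&Z del livers at 3M under each analysis, with the count at the end of each bar. The fit as reported gave 28 and 17, and 0 genes were called with i707_i517 as R&Z flox or with the 8 libraries alone and terms for batch and sex. The fit with no filter on low counts (133 and 84) is not drawn.

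Markers of other cells of the liver were compared because whole tissue was read. None of the 14 cholangiocyte, 20 macrophage and Kupffer cell, 10 MHC class II, 20 lymphocyte and neutrophil, 20 endothelial and 21 stellate cell, fibroblast and matrix genes tested was called. Cholangiocyte genes summed to 424.3 to 621.9 CPM in R&Z flox and 662.5 to 834.9 in R&Z del livers. Lymphocyte and neutrophil genes summed to 9.903 to 29.48 and 36.73 to 40.31. Both sums were higher in every R&Z del library than in any control, whereas the macrophage (123.6 to 771.7 and 298.5 to 1068), MHC class II (86.64 to 380.7 and 209.9 to 714.6), endothelial (152.6 to 456.6 and 128.6 to 547.8) and stellate cell sums (285.4 to 366.5 and 226.6 to 308.1) overlapped. Gene by gene, 2 of the 14 cholangiocyte and 4 of the 20 lymphocyte and neutrophil genes lay above all controls in every R&Z del library. Over all genes tested, 4.29% did. Of the 14 cholangiocyte genes, 8 had a positive and 6 a negative fold change, with a median log2 fold change of 0.16. For the effect in the first and the second batch that median was -0.42 and 0.03. The cholangiocyte sum therefore does not speak for most of its list. *H2-Eb1* and *Cd74*, of MHC class II, had log2 fold changes of 1.81 and 1.00 (adjusted p = 0.383 and 0.519). Up to 15 of the 20 lymphocyte and neutrophil genes had no count in a control library and up to 7 in a R&Z del library. The cholangiocyte marker *Krt19* had no count in S15, S16 and S17, and *Krt7* none in those 3 or in S18. Hepatocyte identity genes summed to 109200 to 151100 and 65960 to 94500, without overlap. Without *Alb*, the other 18 summed to 47610 to 72260 and 43880 to 56750, which overlapped. The part of these shifts in the other results was not tested.

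The same model gave 60 calls at 1 month (0.466%) and 61 at 7 months (0.474%), with 30 higher and 30 lower (0.233% each) at 1 month and 34 higher (0.264%) and 27 lower (0.21%) at 7 months, each against control livers of its own time. Of the 45 genes called at 3M, 21 were called in the same direction at both other times, 2 at 1 month only (*Gstm6* and *Uroc1*) and 4 at 7 months only (*Id2*, *Lhpp*, *Prodh* and *Rhbg*). The 21 included *Glul*, *Slc1a2*, *Gulo*, *Gstm2*, *Gstm3*, *Cyp2e1*, *Hal*, *Cyp2f2*, *Sds* and *Alb*. The other 18, called at 3M alone, were *Abcg8*, *Cyp27a1*, *Dhrs1*, *Fads2*, *Fgl1*, *Gde1*, *Gfra1*, *Gstm1*, *Hacd3*, *Ifi27*, *Odf3b*, *Orm1*, *Psmd3*, *Rdh9*, *Slc22a7*, *Slc25a22*, *Susd4* and *Tbrg1*. Their effect was not shown to be particular to 3M, since the difference from 1 month and that from 7 months passed an adjusted p of 0.1 in edgeR's quasi-likelihood test for 0 of 12878 genes each, with 747 and 654 at an unadjusted p below 0.05 and 114 and 40 at an adjusted p below 0.1 in DESeq2. *Gstm1* missed the call at the other times by its fold alone, with log2 fold changes of 0.88 and 0.82 (adjusted p = 0.00826 and 0.00615). Picked for their spread in time after the values were seen were *Odf3b*, with log2 fold changes of -1.92, -3.39 and -0.66 at 1, 3 and 7 months, *Slc25a22*, with 0.25, 1.20 and -0.47, and *Gde1*, with -0.16, 1.42 and 0.32.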

How the data were processed

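RNA of whole livers was sequenced as single reads of Smart-Seq2 libraries. The authors trimmed the reads (the submitters' notes name Trim Galore and the study's methods Sickle), aligned them to mm10 with STAR 2.5.0a and assigned them to genes with featureCounts, without strand in the first batch. The deposited values are raw counts of reads per gene symbol, neither normalized nor filtered. The batches list 49997 and 49568 symbols and share 34490, which were used and hold 95.7% to 98.8% of a library's counts at 3M. Total counts were 11721687 to 38692089, and counting error is smallest in the deeper first batch.

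The 26 undamaged libraries were fitted with edgeR 4.0.16 and limma 3.58.1 under R 4.3.3, after a filter of CPM above 1 in at least 3 libraries and TMM normalization, with a model of genotype by time, sex and batch, these steps as in the study's methods. The quasi-likelihood test was used in place of the likelihood ratio test that the study names. Tests were two-sided, and the SE was taken from the fold change and its F statistic. Groups, sex and batch came from the sample records and the study's sample list. Libraries are of separate mice as listed. 2 further R&Z del records at 3M were not analysed here. Alternatives were DESeq2 1.42.0 and the settings of the closing section. The effect per batch was added after the data were seen. The model was tested on simulated data. The members and gene lists were chosen with earlier results of these data known. Named were *Rnf43*, *Znrf3*, the called genes, and of each list its called members and up to 3 others of smallest p. 1 called gene and 1 list member are not reported here. *Ftcd*, *Xist*, *Ddx3y*, *Apoa1*, *Ttr*, *Krt7*, *Krt19* and *Cyp2a4* were named outside this rule. Coordinates and promoters are from RefSeq, GRCm38.p6.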

Additional observations from a re-analysis of the deposited data

Results flagged for a closer look

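In 7 of the 88 genes tested, 1 of the 5 R&Z flox libraries lay far from the other 4 by Dixon's criterion, which chance meets in about 1 group in 20. S17 was the low library for *Lhpp* (CPM 12.1 against 33.6 to 42.2), *Orm1* (709.5 against 1225 to 1371), *Sds* (42.1 against 117 to 146) and *Otc* (336 against 833 to 1006). S15 was low for *Slc1a2* (44.8 against 69.9 to 78.0) and high for *Lgr5* (14.3 against 3.16 to 6.18) and *Apoc3* (13660 against 9624 to 10540).

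The genotype effect differed between the batches for *Mau2*, which encodes a cohesin loader. The log2 fold change was -0.59 for the first and -7.37 for the second batch, a difference of 6.78 (adjusted p below 0.1 over 12878 genes). It came from S18, with 4 counts (CPM 0.204), while the other 7 libraries had CPM of 18.4 to 43.1.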

How the results depend on the processing

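Under other settings the 45 called genes gave 1035 values, of which 633 kept the call, 400 kept the direction without the call and 2 reversed. The other 43 named genes gave 875 values on the same side, 94 newly past the threshold and 17 of the opposite sign. The number of calls depended on the setting, and the causes were not tested.

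Calls at 3M (total, higher, lower) were 217, 133 and 84 with no filter on low counts, 100, 63 and 37 with edgeR's likelihood ratio test, and 220, 103 and 117 with DESeq2, and these held 43, 45 and 45 of the 45 genes. They were 0, 0 and 0 with the 8 libraries alone and terms for batch and sex, and 0, 0 and 0 with i707_i517 as R&Z flox. Without the batch term they were 26, 14 and 12, in male mice alone 12, 7 and 5, in the first batch alone 2, 1 and 1, and in the second alone 30, 22 and 8. For the effect per batch they were 18, 10 and 8 in the first and 70, 51 and 19 in the second. With 1 library left out they ranged from 29 to 64, 16 to 43 and 9 to 21, with the extremes without i705_i517 (43 higher), S18 (16 higher) and i707_i517 (9 lower).

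The difference between 3M and 1 month passed for 77 genes with no filter, 5 by the likelihood ratio test, 114 by DESeq2, and 1 each in male mice and the second batch alone, and for 0 with any library left out. For 3M and 7 months these were 71, 9, 40, 1 and 2, and 0 to 3 with a library left out, 3 of them without S18.

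Signs turned as follows on the log2 scale. With the 8 libraries alone and a batch term, *Susd4* was -0.69, *Cyp4a12a* -2.74, *Cyp2d9* -1.46, *A1bg* 4.05 and *Cyp2c69* 4.80. Without the sex term, they were -0.69, -2.11, -1.21, 3.87 and 2.93, and *Cyp3a44* was 6.09. *Cyp4a12a* was also -0.24 with batch and sex at 3M alone, -0.10 in male mice, -0.23 in the second batch alone and -0.24 in the effect per batch, where *Cyp3a44* was 0.26 and 0.25. In the first batch alone *Gls2* was 0.082 and *Mau2* 0.32.

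No paired analysis was possible because the titles do not number the libraries compared in common: S18 alone of the R&Z del libraries has a replicate number of this condition, 1, no R&Z flox library has that number, and numbers given in record order only name a library. Depth limits low genes in the second batch most.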

Other observations

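Other gene groups of the liver gave no call at 3M. Of 33 UDP-glucuronosyltransferases and sulfotransferases, which conjugate drugs and hormones, 15 had a positive fold change and the median log2 fold change was -0.28. Of 13 genes of iron handling, 5 were positive and the median was -0.70, or -0.48 without i707_i517 and -0.21 with it as R&Z flox. The NRF2 and metallothionein list had 10 of 19 positive (median 0.04), glucose metabolism 18 of 26 (0.38) and lipoprotein assembly and sterol efflux 14 of 22 (0.17). The circadian clock list had 11 of 18 positive with a median of 0.18, but 1.17 and -0.95 for the effect in the first and the second batch. Genes of the foetal liver and liver tumours had 7 of 9 positive and a median of 1.75, but 0.49 without i707_i517 and -0.11 with it as R&Z flox, and 2.33 and -0.66 for the effect in each batch. Their summed CPM was 1.404 to 19.98 in R&Z flox and 62.47 to 124.1 in R&Z del livers, without overlap. Gene by gene, only 1 of the 9 lay above every R&Z flox library in all 3 R&Z del libraries, as 4.29% of all genes tested did. The sum therefore does not speak for most of the list.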
